A study of Oryza sativa with 12 samples.

Results

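In rice leaf primordia, 67 of 28962 gene identifiers stood higher in both ospid C1 and ospid C2 than in WT while lying close to WT in ospin1c ospin1d. They were chosen among identifiers starting with Os by measured values, in FPKM (fragments scaled to gene length and to library depth). A member had to have a log2((group mean FPKM + 1)/(WT mean FPKM + 1)) of at least 1 in each ospid line and between -0.5 and 0.5 in ospin1c ospin1d. Its lowest value in the 6 ospid libraries also had to exceed its highest value in the other 6 libraries. The differences between the ospid lines and the other groups are therefore given as a description of the members, and no test is drawn from them.

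The auxin carriers of the PIN family export auxin from plant cells, and their position in the cell membrane sets the direction in which auxin flows. PINOID-type kinases phosphorylate PIN proteins, and through this affect where they sit and how active they are. Auxin maxima at the shoot apex mark where leaf primordia form, which is why carriers and kinase are studied in this tissue.

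The 12 libraries came from leaf primordia and form 4 groups of 3. The groups are ospid C1 and ospid C2, both labelled as knockouts of OsPID, then ospin1c ospin1d, labelled as a knockout of OsPIN1c and OsPIN1d, and WT, the cultivar Nipponbare. All plants shared the same growth chamber settings, per the labels. Plant age, the number of plants per library and how the lines were made are not given in the sources used here. The labels do not say what C1 and C2 stand for. Traits that ospid C1 and ospid C2 may share and loss of OsPID cannot be told apart, nor can traits of the ospin1c ospin1d line and loss of the carriers. The labels do not say whether replicates are separate plants, so the spread between them may be technical.

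The depths behind the FPKM values, recovered from their spacing, were 15211547 to 16422849 reads. Nearly all of these reads fell on the listed identifiers, so the total sequenced per library is not known. The least similar pair of libraries within a group correlated at 0.960. For a gene of 1 kb, 1 read was worth 0.0609 to 0.0657 FPKM. The files do not pair identifiers with gene names, and of the 32552 deposited identifiers only 1 was found among the genes of the reference table, and it was no member. The members therefore stand under their deposited identifiers with no function, and neither the knocked-out genes nor markers of the tissue were checked. Rice identifiers of this form carry the chromosome in the digits after Os, and their last digits follow the order of genes on it.

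The fold condition was met by 576 of the 28962 identifiers in ospid C1 (1.99%) and by 495 in ospid C2 (1.71%), with 378 (1.31%) meeting it in both. All 6 ospid libraries lay above all of the other 6 for 1163 (4.02%). A change within the bound in ospin1c ospin1d was common, at 26501 (91.5%). All conditions together left the 67 (0.231%). Of the 100 that met the fold and the separation, 32 lay above the ospin1c ospin1d bound and 1 below it. The bound thus removed mainly identifiers that were also higher in ospin1c ospin1d.

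Several members lay close to the limits. Os07g0695100 was just inside, with a log2 change of 1.01 in ospid C2 and 1.28 in ospid C1. Just outside the fold limit, Os03g0255400 had 0.999 in ospid C2 and 1.24 in ospid C1. At the ospin1c ospin1d bound, Os02g0180000 was just inside at 0.487 and Os06g0320200 just outside at 0.505. Os06g0320200 had log2 changes of 2.35 in ospid C1 and 2.97 in ospid C2, both larger than those of most members. For separation, Os01g0546400 was inside with a lowest ospid value of 22.0 FPKM and a highest other value of 21.8 FPKM, and Os04g0549600 was outside with 90.5 and 91.5 FPKM. In all, 8 members had a lowest ospid value less than 1.1 times their highest other value.

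The members fell along a range, described here in 3 bands by the mean FPKM of the 6 other libraries as a share of that of the 6 ospid libraries. The bands and the members named in them were chosen after the values were seen, apart from Os01g0537250 and Os03g0629800, which have the largest changes. In 14 members this share was under 5%, so that they were near 0 outside the ospid lines. In 13 it was between 5% and 25%. In the remaining 40 it was above 25%, and these members had a value above 0 in every library and differed by degree.

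**Figure D1:**
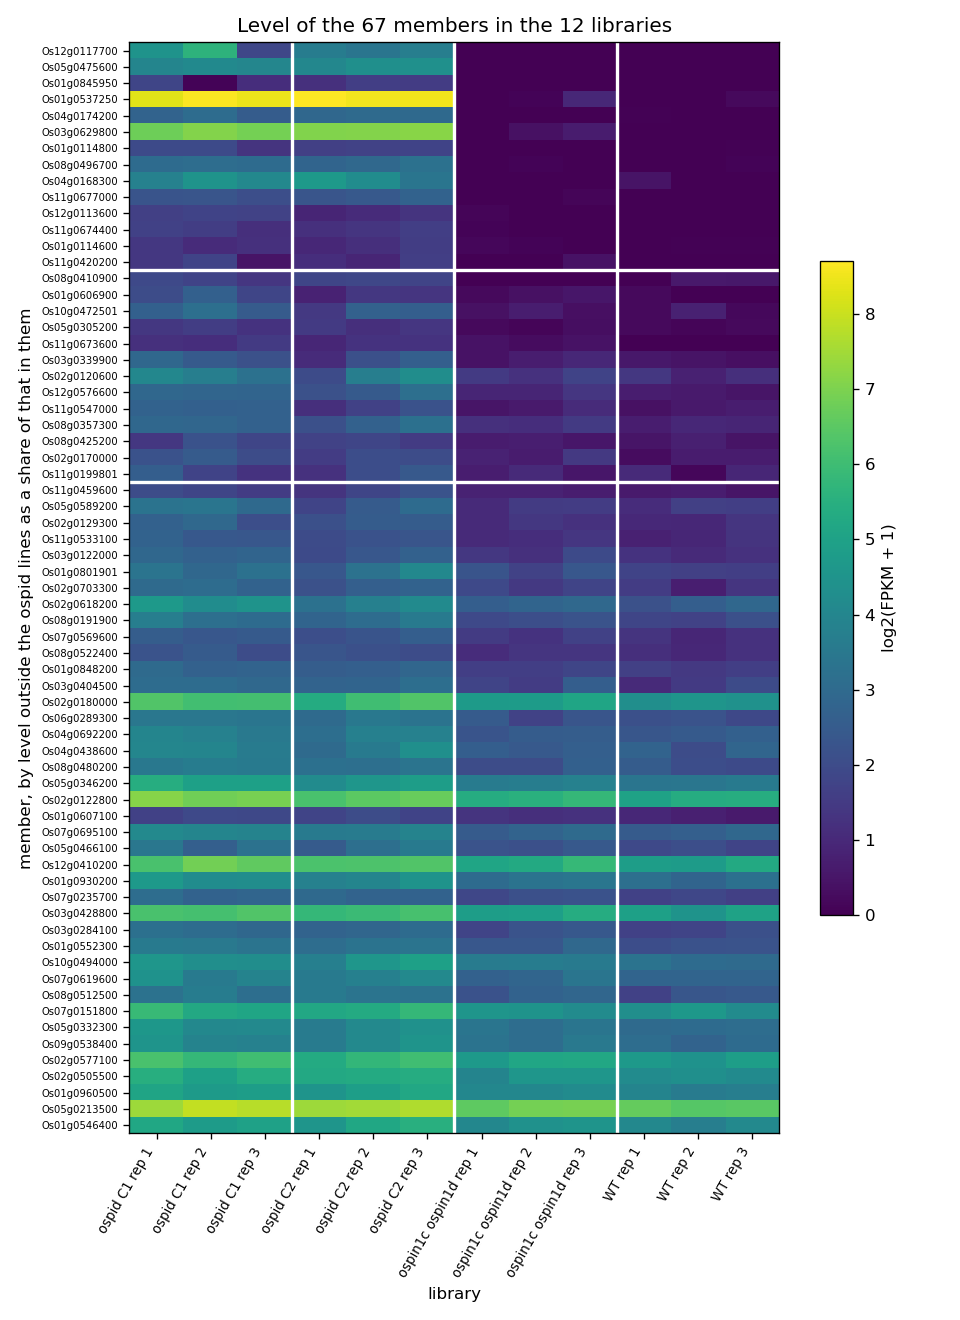
Level of each of the 67 members (rows) in the 12 libraries (columns), as log2(FPKM + 1) by colour, with members ordered by their level outside the ospid lines as a share of that in them. White lines separate the 4 groups of libraries and the 3 bands of 14, 13 and 40 members. The 14 members at the top are dark in all ospin1c ospin1d and WT libraries, and the 40 at the bottom have signal in every group.

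Os01g0537250 was the highest of all members in the ospid lines. It stood at 319, 405 and 348 FPKM in ospid C1 and at 418, 377 and 368 FPKM in ospid C2. In ospin1c ospin1d it was at 0, 0.0542 and 0.979 FPKM, and in WT at 0, 0 and 0.154 FPKM. Every ospid library thus stood more than 300 times above the highest other library. The ospid values rest on 5935 to 8171 reads each, and the 6 other libraries together held 23 reads.

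Os03g0629800 showed the same form at a lower level. It was at 111, 136 and 119 FPKM in ospid C1 and at 134, 136 and 144 FPKM in ospid C2. In ospin1c ospin1d it was at 0, 0.303 and 0.577 FPKM, and it was listed at 0 in all 3 WT libraries. The ospid libraries held 1840 to 2360 reads of it each, and the other 6 together 15. For both of these identifiers, replicate 3 of ospin1c ospin1d carried the highest of the small values outside the ospid lines.

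A group of 3 members was listed at 0 in all 6 libraries outside the ospid lines. Os05g0475600 was even across the ospid libraries, at 14.8, 16.5 and 15.1 FPKM in ospid C1 and 15.2, 19.4 and 19.7 FPKM in ospid C2, with 151 to 206 reads each. Os12g0117700 was not: it stood at 21.2, 48.7 and 2.59 FPKM in ospid C1, and at 11.7, 9.45 and 12.3 FPKM in ospid C2. Its highest and lowest ospid C1 libraries differed by 18.8 times, and replicate 2 alone held most of that line's signal. Os01g0845950 was low and uneven, at 2.53, 0.0704 and 1.20 FPKM in ospid C1 and 1.34, 2.09 and 1.95 FPKM in ospid C2, and its lowest ospid library held 1 read.

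The next 3 members by size of change were also near 0 elsewhere. Os04g0168300 stood at 13.3, 21.0 and 15.7 FPKM in ospid C1 and 25.2, 17.7 and 9.35 FPKM in ospid C2. Outside the ospid lines it had 3 reads, all in WT replicate 1. Os08g0496700 was among the most even, at 7.34, 7.58 and 7.17 FPKM in ospid C1 and 6.03, 6.72 and 8.44 FPKM in ospid C2, against 2 reads in the other 6 libraries together. Os04g0174200 was at 5.82, 7.36 and 4.80 FPKM in ospid C1 and 6.58, 6.995 and 6.83 FPKM in ospid C2, against 1 read elsewhere. Across the band of 14, mean ospid levels ran from 1.39 to 373 FPKM with a median of 5.27 FPKM, and the highest value in any other library was 0.979 FPKM. The narrowest separation in the band was that of Os11g0420200, whose lowest ospid library, ospid C1 replicate 3, was at 0.367 FPKM from 2 reads, against 0.350 FPKM, also 2 reads, in ospin1c ospin1d replicate 3.

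**Figure D2:**
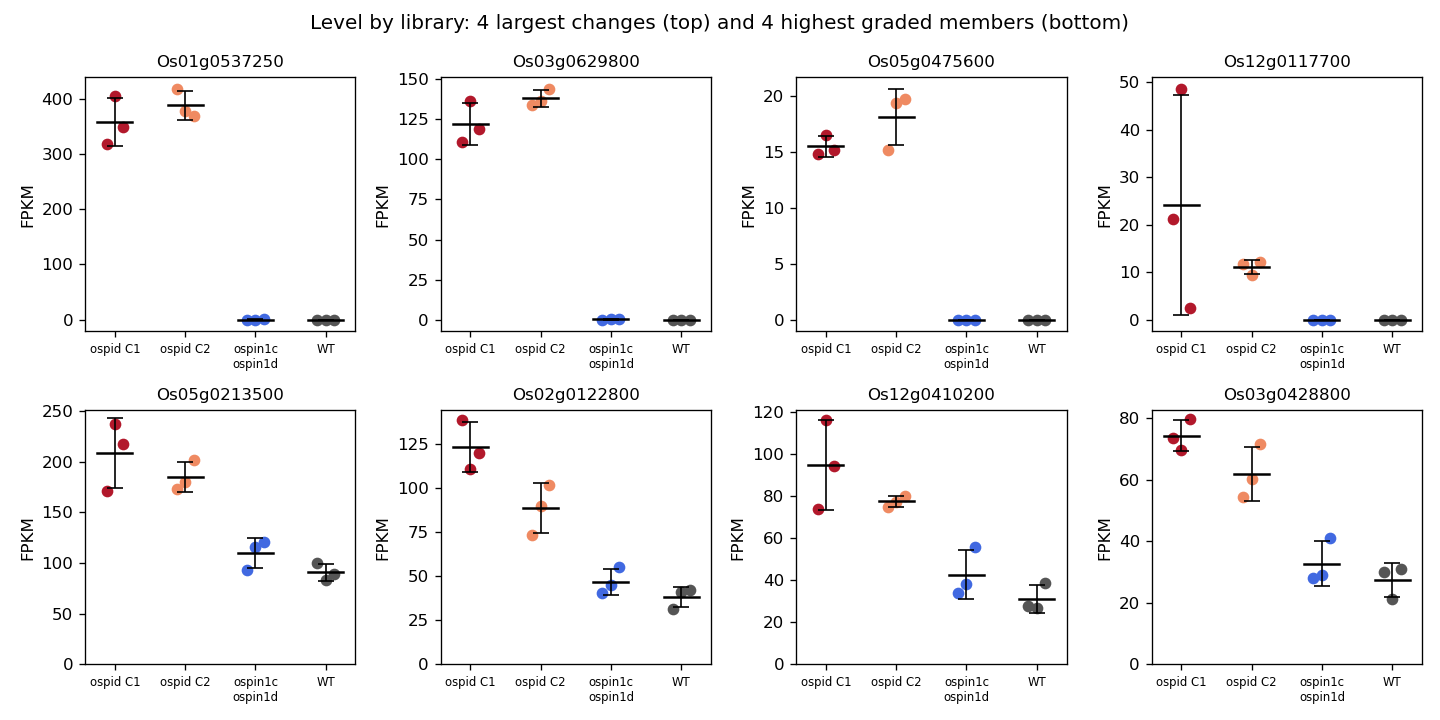
FPKM by library for the 4 members with the largest mean log2 change (top) and the 4 graded members with the highest ospid level (bottom), with each point a library, the bar the mean and the whiskers 1 SD (n = 3). The top panels show no or almost no signal in ospin1c ospin1d and WT, with Os12g0117700 spread from 2.59 to 48.7 FPKM in ospid C1, while the bottom panels show signal in all 4 groups.

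In the middle band of 13, mean ospid levels ran from 1.36 to 11.6 FPKM and were 4.23 to 14.3 times those of the other libraries (median 7.57 times). Os02g0120600 had the highest level there. It stood at 15.4, 12.2 and 8.48 FPKM in ospid C1 and at 3.0, 12.3 and 18.2 FPKM in ospid C2. It was at 1.81, 1.35 and 2.34 FPKM in ospin1c ospin1d and at 1.66, 0.754 and 1.28 FPKM in WT. Within ospid C2 the libraries of this gene differed by 6.07 times, the widest spread of any member in that line, and replicate 1 was only slightly above the highest ospin1c ospin1d library.

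Os12g0576600 and Os08g0357300 had the next highest levels of the band. Os12g0576600 was at 6.50, 6.16 and 5.93 FPKM in ospid C1, at 3.50, 4.58 and 7.96 FPKM in ospid C2, at 0.856, 0.865 and 1.62 FPKM in ospin1c ospin1d and at 0.637, 0.530 and 0.397 FPKM in WT. Os08g0357300 was at 6.58, 6.26 and 5.54 FPKM in ospid C1, at 3.37, 5.47 and 8.38 FPKM in ospid C2, at 1.30, 1.20 and 1.81 FPKM in ospin1c ospin1d and at 0.610, 0.944 and 0.887 FPKM in WT. In both, ospid C2 replicate 1 was the lowest ospid library and ospin1c ospin1d replicate 3 the highest of the others. All 3 ospin1c ospin1d libraries of both genes also lay above all 3 WT libraries. The rule favours low WT values, and the share of all features with such a separation was not counted. Nothing is read from it.

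In Os08g0410900 and Os11g0673600, ospin1c ospin1d and WT stood in opposite orders. Os08g0410900 was at 2.83, 2.41 and 1.62 FPKM in ospid C1 and at 2.51, 2.65 and 2.47 FPKM in ospid C2. None of the 3 ospin1c ospin1d libraries had a read of it, and it stood at 0, 0.527 and 0.489 FPKM in WT, where replicate 1 had no read and replicates 2 and 3 had 14 and 13. Os11g0673600 was the other way round, at 1.33, 1.21 and 1.82 FPKM in ospid C1, 0.902, 1.45 and 1.42 FPKM in ospid C2, 0.344, 0.217 and 0.331 FPKM in ospin1c ospin1d, and listed at 0 in WT.

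The 40 graded members had mean ospid levels of 2.54 to 197 FPKM, 1.91 to 3.999 times those of the other libraries (median 2.46 times). Os05g0213500 was the highest, at 209 ± 34.3 FPKM in ospid C1, 185 ± 15.0 FPKM in ospid C2, 110 ± 14.8 FPKM in ospin1c ospin1d and 90.9 ± 8.17 FPKM in WT (SD, n = 3 each). Its lowest ospid library, at 171 FPKM, stood well above its highest other library, at 121 FPKM. Os02g0122800 averaged 123 ± 14.2 FPKM in ospid C1, 88.3 ± 14.1 FPKM in ospid C2, 46.8 ± 7.42 FPKM in ospin1c ospin1d and 38.3 ± 5.82 FPKM in WT (SD, n = 3 each). Os02g0180000 averaged 71.6 ± 7.35 FPKM in ospid C1, 61.8 ± 20.5 FPKM in ospid C2, 28.9 ± 4.31 FPKM in ospin1c ospin1d and 20.3 ± 1.77 FPKM in WT (SD, n = 3 each). In each of these 3 genes the ospin1c ospin1d mean lay between those of WT and the ospid lines. The rule set every ospid library above the others and favours low WT values, so nothing is read from this order. In bulk tissue, more RNA per cell and more cells of a type that expresses a gene cannot be told apart.

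In ospin1c ospin1d, 57 of the 67 members had a group mean above that of WT, 7 below it and 3 equal, at 0. Over all 21250 features tested, 51.7% had a mean log2 change below 0 there. The WT mean also enters both ospid conditions, so the selection favours members with low WT values. No conclusion is drawn from this lean. The median log2 change of the members in ospin1c ospin1d was 0.196, against -0.0114 for all 21250 features tested, and the rule held each member's change between -0.5 and 0.5. The median of 0.196 was 0.311 without ospin1c ospin1d replicate 1, 0.131 without its replicate 3 and 0.307 with a pseudocount of 0.1. By band the median was 0.0153 in the band near 0 elsewhere, 0.259 in the middle band and 0.262 in the graded band, here on log2 of group means. Of the graded members 37 of 40 had a higher mean in ospin1c ospin1d than in WT. For these graded members, lying close to WT means lying within the bound of the rule, and equality with WT was not tested. In the band near 0 elsewhere 8 of the 14 had a higher mean in ospin1c ospin1d. There the 6 other libraries together held at most 23 reads of any member, so nothing is read from these signs. By limma, a linear model across all features on log2(FPKM + 1), 0 members differed between ospin1c ospin1d and WT at an adjusted p under 0.05, 6 had an unadjusted p under 0.05, all higher, and 2.31% of all features were called. With other settings or a library left out, 1 to 11 members were higher at an unadjusted p under 0.05, with 1 without ospin1c ospin1d replicate 3. Over all features, 281 were called higher and 209 lower, against 80 and 105 without ospin1c ospin1d replicate 3 and 488 and 300 without ospid C2 replicate 1. The rule kept large changes out of this count, so nothing is read from it.

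For the ospid lines, the same model called 65 of the 67 members higher in ospid C1 than in WT, where 10.2% of all features were called higher. It called 65 higher in ospid C2 than in WT, where 4.0% of all features were called. The rule used both contrasts, and they share the WT libraries, so these counts are descriptions, with nothing read from them. The background itself moved with single libraries. Higher calls over all features numbered 2166 in ospid C1, but 489 without ospid C1 replicate 1, 1093 without its replicate 3, 3299 without ospid C2 replicate 1, 1333 without ospid C2 replicate 2, and 737, 948 and 1050 without WT replicates 1, 2 and 3. They numbered 851 in ospid C2, but 2050, 324 and 315 without ospid C2 replicates 1, 2 and 3, and 539, 413 and 491 without WT replicates 1, 2 and 3. With median-ratio scaling the ospid C1 calls were 1258 higher and 1908 lower, in place of 2166 higher and 1127 lower. The median log2 change of the members was 1.37 in ospid C1, against 0.150 for all features, and 1.17 in ospid C2, against 0.0625. All 67 members passed the filter of 1 FPKM in at least 3 libraries, but 41 of them would pass it on the ospin1c ospin1d and WT libraries alone. Median-ratio scaling sets the median over all features near 0 by construction, and gave -0.000693 in ospid C1 in place of 0.150. The median of the members in ospid C1 was then 1.21.

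Single libraries stood out in the graded band and in the middle band. The median log2 change of the 40 graded members against the WT mean was 1.45, 1.30 and 1.19 in the ospid C1 libraries. It was 0.91, 1.15 and 1.38 in the ospid C2 libraries, and 0.08, 0.20 and 0.44 in those of ospin1c ospin1d. Replicate 1 of ospid C2 was the lowest of the 6 ospid libraries in 30 of the 40 members (75.0%), against 44.2% of all features tested. With median-ratio scaling it was the lowest in 21 (52.5%), against 24.7%. Replicate 3 of ospin1c ospin1d was the highest of the 6 libraries outside the ospid lines in 28 of the 40 (70.0%), against 16.6% of all features, and in 27 (67.5%) against 15.6% with median-ratio scaling. In the middle band, ospid C2 replicate 1 was the lowest in 10 of 13 members (76.9%), and in 9 (69.2%) with median-ratio scaling. There ospin1c ospin1d replicate 3 was the highest in 8 (61.5%) with either scaling. In the band near 0 elsewhere, ospid C2 replicate 1 was the lowest ospid library in 3 of 14 members, and ospid C1 replicate 3 in 6. Members and bands were set on these same values, and the features beside them were not selected. These shares are therefore a description.

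Without ospid C2 replicate 1 the rule gave 125 members in place of 67, of which 66 were shared, and without ospin1c ospin1d replicate 3 it gave 94, including all 67. The part these libraries play in the differences of the graded and middle bands was not tested.

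**Figure D3:**
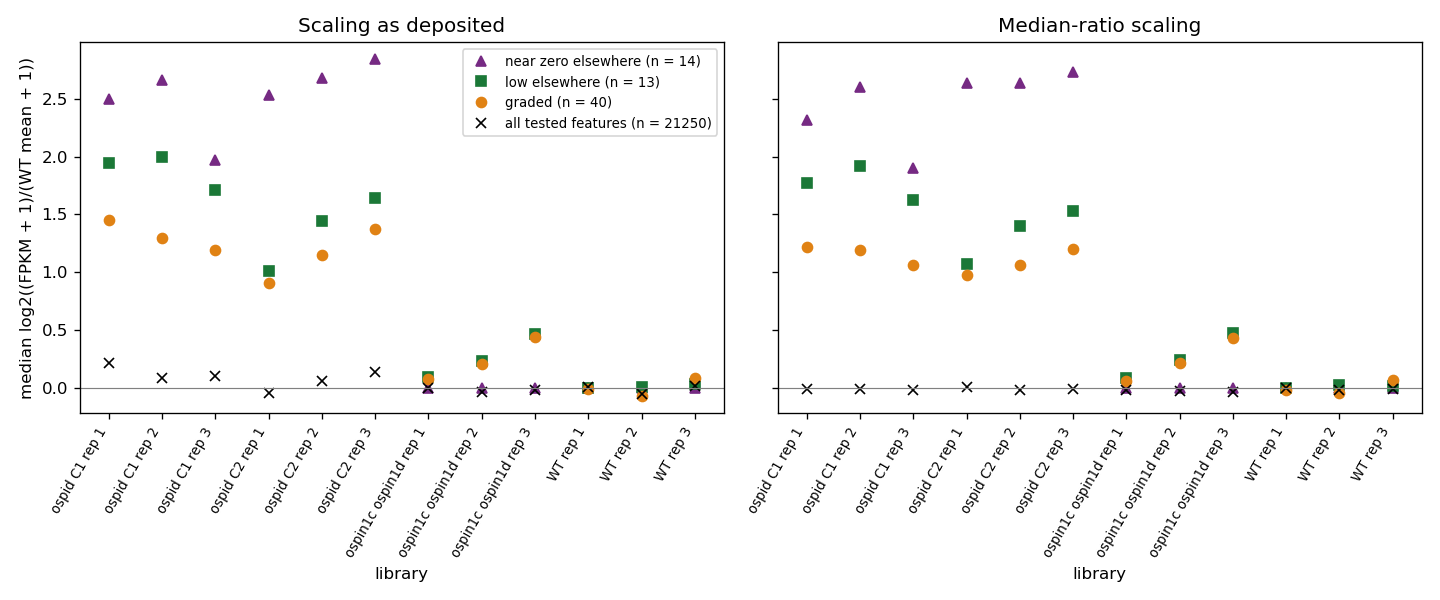
Median over members of log2((FPKM + 1)/(WT mean + 1)) in each library, for the 3 bands and for all 21250 features tested, with the deposited scaling (left) and median-ratio scaling (right). In the middle and graded bands ospid C2 replicate 1 is the lowest ospid library and ospin1c ospin1d replicate 3 the highest of the others, while in the band near 0 elsewhere the lowest ospid library is ospid C1 replicate 3.

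The rule set no threshold on the difference between the ospid lines, but it bounded that difference by asking for a log2 change of at least 1 in both, which removed identifiers low in either line. The values below are therefore conditioned on the selection, and the count of calls does not show that the lines act alike. None of the 67 members differed between ospid C2 and ospid C1 at an adjusted p under 0.05 (limma, 0 members), and 7 had an unadjusted p under 0.05, all lower in ospid C2. That last count was 7 lower and 2 higher with median-ratio scaling, 7 lower and 1 higher without ospid C1 replicate 1, 5 lower and 3 higher without ospid C2 replicate 1, and 15 lower without ospid C2 replicate 3. Over all 21250 features 2 were called (0.00941%) and 2223 had an unadjusted p under 0.05. The log2 difference was below 0 for 50 members (74.6%), against 66.6% of all features. Its median over the members was -0.149, against -0.0941 over all features. With median-ratio scaling 41 members were below 0, and the medians were -0.0542 for the members and 0.000320 for all features, the latter near 0 by construction. Without ospid C2 replicate 1 the median of the members was -0.0320 and that of all features -0.0320.

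The 3 members with the smallest p in that comparison were all lower in ospid C2. Os11g0547000 was at 2.35 ± 1.19 FPKM in ospid C2 and 5.48 ± 0.108 FPKM in ospid C1 (SD, n = 3 each; log2 difference -1.01, SE 0.245, limma adjusted p = 0.196). Os01g0606900 was at 1.33 ± 0.464 FPKM in ospid C2 and 3.68 ± 1.55 FPKM in ospid C1 (SD, n = 3 each; log2 difference -0.98, SE 0.241, limma adjusted p = 0.202). Os12g0113600 was at 1.13 ± 0.307 FPKM in ospid C2 and 2.26 ± 0.0787 FPKM in ospid C1 (SD, n = 3 each; log2 difference -0.62, SE 0.162, limma adjusted p = 0.229). None of these genes passed the adjustment. In each the ospid C2 libraries lay below all ospid C1 libraries. The genes were picked by their small p, which favours such separation, and its share over all features was not counted. Nothing is read from it. The 95% interval of the difference had a median half-width of 0.446 across members and reached below -1 in 8 of them and above 1 in 2. For those members a difference of that size between the lines lies within the interval.

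**Figure D4:**
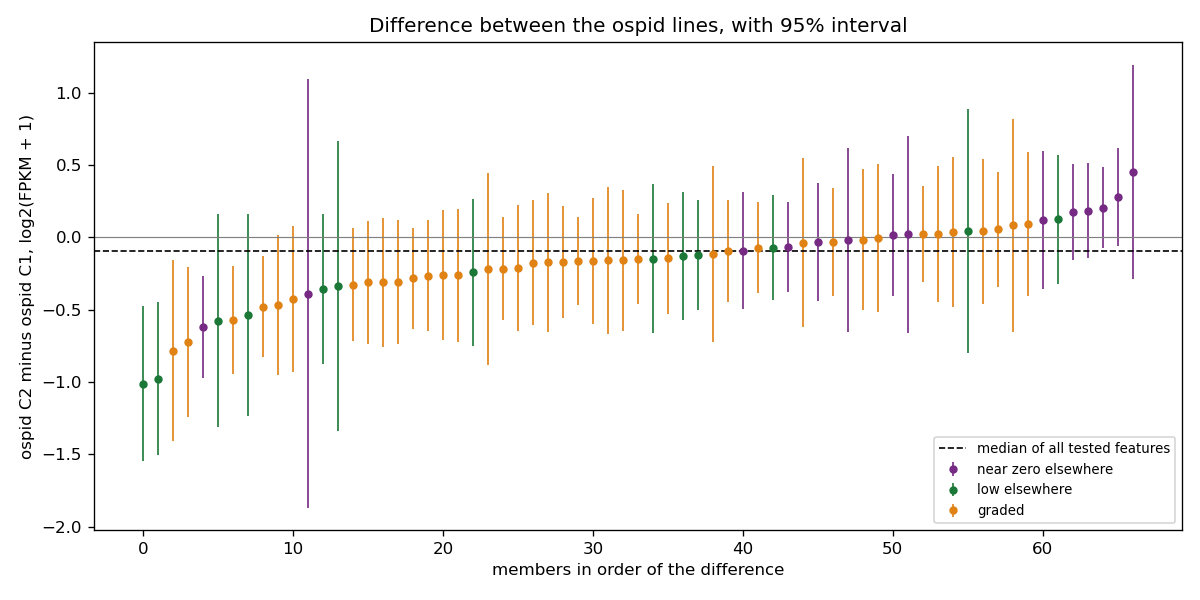
Difference between ospid C2 and ospid C1 in log2(FPKM + 1) for the 67 members, in order of size and coloured by band, with the 95% interval from limma. The dashed line marks the median of all 21250 features, at -0.0941, and the points of 50 members lie below 0.

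The members were spread over all 12 chromosomes by their identifiers. Chromosome 1 held 12 of 4100 identifiers (0.293%), chromosome 11 held 8 of 1745 (0.458%) and chromosome 8 held 8 of 1972 (0.406%), against 0.231% of all identifiers. Chromosome 6 and chromosome 9 held 1 each. Of the 14 members near 0 elsewhere, 4 lay on chromosome 1, 3 on chromosome 11, 2 each on chromosomes 4 and 12, and 1 each on chromosomes 3, 5 and 8.

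Some members lay next to each other in the order of identifiers. On chromosome 1, Os01g0114600 and Os01g0114800 had 1 identifier between them. Os01g0114600 was at 1.65, 1.11 and 1.32 FPKM in ospid C1 and at 0.962, 1.27 and 2.01 FPKM in ospid C2, against 8 reads in the 6 other libraries together. Os01g0114800 was at 2.87, 2.88 and 1.5 FPKM in ospid C1 and at 2.15, 2.28 and 2.40 FPKM in ospid C2, against 1 read elsewhere. The identifier between them, Os01g0114700, was no member but had 65 reads over the 6 ospid libraries and 1 in the others. The next one, Os01g0114900, had 37 reads in the ospid libraries and 0 in the others. A run of 4 neighbouring identifiers was thus read almost entirely in the ospid lines. The identifiers on both sides of it were read in all groups. Os01g0114300 averaged 0.775 FPKM in ospid C1, 0.748 FPKM in ospid C2, 0.682 FPKM in ospin1c ospin1d and 0.441 FPKM in WT. Os01g0115100 averaged 1.55 FPKM in ospid C1, 1.32 FPKM in ospid C2, 1.05 FPKM in ospin1c ospin1d and 1.17 FPKM in WT.

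On chromosome 11, Os11g0673600, Os11g0674400 and Os11g0677000 lay within 9 consecutive identifiers. Os11g0674400 was at 2.23, 1.98 and 1.24 FPKM in ospid C1 and at 1.32, 1.55 and 2.03 FPKM in ospid C2, from 505 reads in all, against 5 reads elsewhere. Os11g0677000 was at 3.75, 3.86 and 3.29 FPKM in ospid C1 and at 3.89, 4.44 and 5.64 FPKM in ospid C2, against 2 reads elsewhere. Beyond the last of them, with 3 identifiers between, lay one with the opposite pattern. Os11g0678200 was at 0, 0 and 0.164 FPKM in ospid C1, at 0.0777, 0 and 0.168 FPKM in ospid C2, at 62.0, 35.3 and 98.5 FPKM in ospin1c ospin1d and at 33.1, 27.3 and 25.1 FPKM in WT. Members read almost entirely in the ospid lines and an identifier nearly unread in them thus stood close together. Such patterns were not limited to the ospid lines. Between Os04g0168300 and Os04g0174200 on chromosome 4, Os04g0172560 averaged 31.2 FPKM in ospid C1, 24.4 FPKM in ospid C2, 0 FPKM in ospin1c ospin1d and 30.1 FPKM in WT. Os04g0173800, also between them, averaged 0.156, 0.0385, 6.95 and 0.0195 FPKM in the same order.

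**Figure D5:**
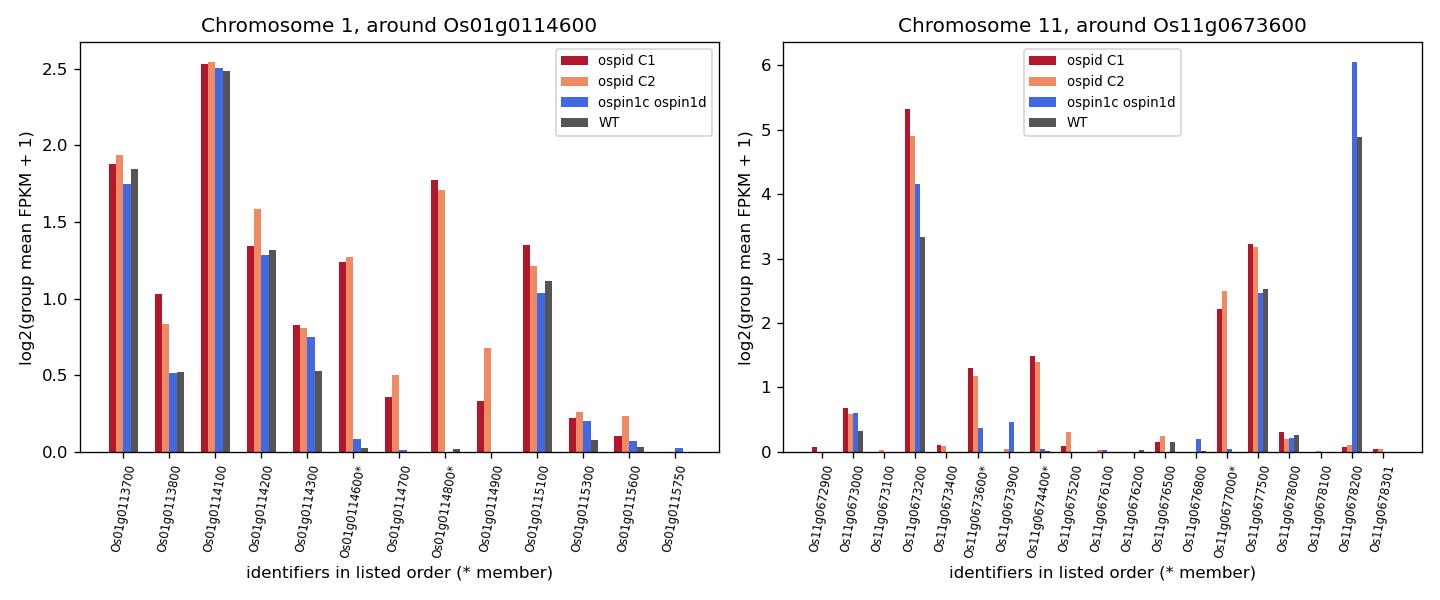
Group means as log2(mean FPKM + 1) for identifiers in listed order around Os01g0114600 on chromosome 1 (left) and Os11g0673600 on chromosome 11 (right), with members marked by a star and 4 bars per identifier for ospid C1, ospid C2, ospin1c ospin1d and WT. On the left a run of 4 identifiers has bars in the ospid lines alone or almost alone, and on the right Os11g0678200 has bars in ospin1c ospin1d and WT and almost none in the ospid lines.

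Within 10 identifiers on either side of the 14 lay 237 identifiers that were not members. Of these, 4 (1.69%) had the same form, with no overlap between the ospid and the other libraries and a level elsewhere under 5% of that in the ospid lines. They were Os01g0114700, Os01g0114900, Os11g0675200 and Os12g0113700. Of all 28895 identifiers starting with Os that were not members, these 237 included, 18 (0.0623%) had that form. The form asked for no minimum of reads, so the separation can be very narrow. Os01g0114700 was at 0.0326 FPKM in ospid C1 replicate 1 and at 0.0313 FPKM, from 1 read, in ospin1c ospin1d replicate 3. Os11g0675200 had 14 reads over all ospid libraries together. Os04g0483450, among the 18 but not near a member, had 11. The part of low read numbers in these shares was not tested. A log2 change of at least 1 in both ospid lines was seen in 5 of the 237 (2.11%) and in 1.08% of all non-members, and a change of -1 or below in both in 3 (1.27%) and 0.886%.

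The members' median WT level was 1.27 FPKM, against 8.21 FPKM for the 19641 tested identifiers starting with Os. Fewer reads give a wider counting error at such levels, and 2 members had fewer than 10 reads in an ospid library, namely Os01g0845950 and Os11g0420200. The median length implied by the FPKM steps was 1363 bases for the members and 1519 for the tested identifiers. It was 987.5 bases for the band near 0 elsewhere, with single lengths of 351 to 3102 bases.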

How the data were processed

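RNA-seq libraries of rice leaf primordia were made from total RNA with an NEBNext Ultra kit, per the labels' protocols. For every library the authors deposited FPKM by identifier, per the file headers. HISAT2 2.1.0, HTSeq 0.6.0, Bowtie2 2.2.3 and the build IRGSP-1.0 are listed in the submitters' processing notes, without roles. The sources used here do not say how strand and shared reads were handled, and genes that overlap or have near-identical copies may have exchanged reads.

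The 67 members were found by applying the rule to the deposited FPKM of the 28962 identifiers starting with Os, out of 32552 deposited. Members, lists and tests were chosen with earlier results of these data known. Depths were found as the total at which lengths implied by FPKM steps were whole. For each gene the smallest length with whole read numbers was used, which makes lengths and reads lower bounds. Recovered reads summed to between 99.96% and 99.98% of the depths.

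Differences were tested with limma 3.58.1 (R 4.3.3) on log2(FPKM + 1), with a mean-dependent prior, all 12 libraries in 1 fit and Benjamini-Hochberg adjustment over the 21250 features that reached 1 FPKM in 3 or more libraries. This understates changes of low genes. Alternatives were scaling, filters, pseudocount, groups in the fit, replicate block, settings of the rule, and each library left out. With no table pairing identifiers and names, the 2 members with the largest mean log2 change were named by rule, others after their values were seen. Planned annotation classes and tissue markers were not counted for the same reason.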

Additional observations from a re-analysis of the deposited data

Results flagged for a closer look

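In 4 members every ospid library lay above the WT mean and every ospin1c ospin1d library below it, which was not tested. Their log2 changes in ospin1c ospin1d were -0.4206 for Os08g0410900, -0.1697 for Os04g0168300, -0.01747 for Os01g0114800 and -0.01576 for Os04g0174200. All 4 were listed at 0 in the 3 ospin1c ospin1d libraries. The WT mean of Os04g0168300, Os01g0114800 and Os04g0174200 rests on 3, 1 and 1 reads in a single library each, and that of Os08g0410900 on 27 reads in replicates 2 and 3.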

How the results depend on the processing

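The number of members (67) was 111 with a pseudocount of 0.1, 36 with a bound of 0.25 on ospin1c ospin1d, 16 at a fold threshold of 1.5 (log2), and 47 to 125 with each library left out in turn, with 125 without ospid C2 replicate 1. It was 51 with median-ratio scaling, 75 over all identifiers and 68 with group medians. With a pseudocount of 0.1, 45 of the 67 were kept; the cause was not tested. The stricter bound and fold lower the count by construction. Features called between ospid C2 and ospid C1 (2 by limma) numbered 0 with median-ratio scaling, with a filter at a mean of 1 FPKM and with a pseudocount of 0.1, 1 with only the groups compared, 5 with no filter and 0 to 42 with each library left out. It was 42 without ospid C2 replicate 2, 6 without WT replicate 2, 1 without ospin1c ospin1d replicate 1 or WT replicate 1, and 0 without any of the other 8; the cause was not tested. No member was called in this comparison under any of 18 alternatives (limma), a count that is conditioned on the selection. Members called higher against WT numbered 59 to 66 in ospid C1 and 56 to 67 in ospid C2 with a library left out, but the rule chose members on these contrasts and the range says nothing about stability. The median log2 change of the members was 2.01 in ospid C1 and 1.69 in ospid C2 with a pseudocount of 0.1. For ospin1c ospin1d the count of 0 became 1 with a pseudocount of 0.1. The adjusted p of the 3 members named for ospid C2 against ospid C1 ran from 0.1066 to 0.5864 over the alternatives, with the direction kept. Counts by library under median-ratio scaling were chosen after seeing the data. Deviations from group means correlated at -0.227 to 0.0694 in the 18 same-numbered pairs. Differently numbered pairs were not compared, so whether replicate numbers mark a pairing cannot be told. With the replicate block 2 features were called between ospid C2 and ospid C1, and 64 members in ospid C1, 64 in ospid C2 and 0 in ospin1c ospin1d against WT. Depth limits members of few reads, and intervals cover the spread between libraries alone.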

Other observations

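Apart from the start with Os, the rule was also met by 8 identifiers starting with EPlOSAG, which are therefore no members. They are described for the ospid lines against the other groups by the same values and with no test. EPlOSAG00000008807 was the largest, at 107, 90.1 and 91.1 FPKM in ospid C1 and 93.5, 72.5 and 83.7 FPKM in ospid C2. It was at 0, 0 and 0.731 FPKM in ospin1c ospin1d and 0, 1.46 and 0 FPKM in WT. EPlOSAG00000025982 was listed at 0 in all 6 libraries outside the ospid lines, and stood at 7.80, 17.2 and 14.1 FPKM in ospid C1 and 4.46, 21.0 and 8.02 FPKM in ospid C2. EPlOSAG00000007247 was graded, at 230, 166 and 161 FPKM in ospid C1, 141, 188 and 201 FPKM in ospid C2, 80.4, 81.3 and 103 FPKM in ospin1c ospin1d and 85.8, 77.1 and 80.7 FPKM in WT. These 3 were chosen after their values were seen.

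Os01g0974600 was read almost entirely in the ospid lines but was no member because of its ospin1c ospin1d level. It had log2 changes of 4.80 in ospid C1, 4.91 in ospid C2 and 1.11 in ospin1c ospin1d, from 1066 reads in the 6 ospid libraries and 22 in the other 6. Os01g0356951 met both fold conditions, with a log2 change of 3.41 in ospid C1 and of 4.07 in ospid C2, and none in ospin1c ospin1d. It failed the separation because an ospid library was listed at 0.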
